A study of Mus musculus with 6 samples.

Results

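ChIP-seq of H3K79me2, the dimethylated lysine 79 of histone H3, was performed in the established mouse neuroblastoma line N2a, and the regions described here are the broad regions called in both libraries with a knockdown of Npm1 (NPM1 KD) and in neither control library (CTR). Broad peaks of the 4 libraries were merged on chromosomes 1 to 19 wherever they shared at least 1 bp, which gave 49835 regions. Of these, 2479 (4.97%) met the rule and are called the members below. Another 20216 regions were held by all 4 libraries. Presence and absence of a called peak chose the members, so their peak scores, and their presence in NPM1 KD as such, are given as a description and were not tested.

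CTR cells carried a non-targeting short hairpin plasmid and NPM1 KD cells 1 hairpin plasmid against Npm1. Both were transfected plasmids, cells were collected on day 3 in vitro, and the protocol of the knockdown included selection with puromycin. Each group had 2 libraries, the 2 of a group from different passages and transfection batches, and 1 pooled input that entered no comparison here. The sources used here do not say whether the inputs served as the control in peak calling, which decides what the fold over background and the q values are relative to. A single hairpin was used, so effects of this hairpin and of the loss of NPM1 cannot be told apart, and neither can a change in some of the cells and a change in every cell.

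H3K79 is methylated by DOT1L, the only well established enzyme for this residue, which travels with elongating RNA polymerase II. H3K79me2 therefore marks transcribed genes, where it is densest just downstream of the start and thins out along the gene body. NPM1 is a nucleolar histone chaperone that also occurs in the nucleoplasm.

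To show what was called, the central stretches of 4 members are printed below, all from the plus strand of GRCm38 (RefSeq) in lower case with each CpG in capitals. They were taken from the member with the highest score (in Cyyr1), the widest one (in Mbd5), the one in Ctcf, a gene the study follows up, and one in Ddc, a gene without any CTR broad peak. The last line is the RefSeq promoter of Ctcf (build GRCm38.p6), which lies inside a region held by all 4 libraries and is shown for contrast.
Cyyr1 member, chr16:85529180-85529419: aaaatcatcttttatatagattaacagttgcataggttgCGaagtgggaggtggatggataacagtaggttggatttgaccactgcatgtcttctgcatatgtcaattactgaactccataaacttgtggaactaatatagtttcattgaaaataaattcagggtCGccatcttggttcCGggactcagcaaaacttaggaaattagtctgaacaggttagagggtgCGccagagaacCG
Mbd5 member, chr2:49188903-49189142: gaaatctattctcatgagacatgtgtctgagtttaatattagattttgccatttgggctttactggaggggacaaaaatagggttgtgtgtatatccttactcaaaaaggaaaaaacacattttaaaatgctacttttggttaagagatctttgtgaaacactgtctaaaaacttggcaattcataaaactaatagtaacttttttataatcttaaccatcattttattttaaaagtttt
Ctcf member, chr8:105680005-105680244: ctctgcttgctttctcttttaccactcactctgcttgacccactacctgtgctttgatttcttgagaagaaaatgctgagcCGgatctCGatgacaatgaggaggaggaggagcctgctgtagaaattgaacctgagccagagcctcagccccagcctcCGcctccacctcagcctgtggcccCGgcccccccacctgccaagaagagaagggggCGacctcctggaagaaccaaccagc
Ddc member, chr11:11835435-11835674: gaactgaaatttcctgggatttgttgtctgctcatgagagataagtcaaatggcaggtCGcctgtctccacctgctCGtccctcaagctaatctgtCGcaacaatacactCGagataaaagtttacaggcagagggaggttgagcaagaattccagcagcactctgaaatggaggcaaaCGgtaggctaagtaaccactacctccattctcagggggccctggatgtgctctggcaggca
Ctcf promoter, chr8:105636288-105636587: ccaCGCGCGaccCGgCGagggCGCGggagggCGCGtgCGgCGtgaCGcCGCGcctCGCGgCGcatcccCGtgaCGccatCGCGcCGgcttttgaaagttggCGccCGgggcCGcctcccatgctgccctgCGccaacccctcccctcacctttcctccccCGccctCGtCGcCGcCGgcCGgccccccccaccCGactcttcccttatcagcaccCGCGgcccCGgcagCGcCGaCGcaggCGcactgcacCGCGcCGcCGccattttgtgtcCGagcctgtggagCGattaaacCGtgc

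The stretches in Cyyr1, Ctcf and Ddc held 5 CpG each in 240 bases and the one in Mbd5 held 0. The Ctcf promoter held 47 in 300 bases. Over whole members the median was 0.962 CpG per 100 bp (quartiles 0.581 and 1.47). The whole member in Cyyr1 had 2.83, above the upper quartile. The whole members in Ctcf (0.862), Ddc (0.928) and Mbd5 (0.664) lay below the median. The printed stretches in Ctcf and Ddc were thus richer in CpG than the members they came from. The median ratio of observed to expected CpG was 0.192 in whole members, and the median GC content was 45.8%. The longer regions held by all 4 had medians of 1.20 CpG per 100 bp, 0.239 and 45.1%. In the central 500 bp the members had a median of 1.0 CpG per 100 bp and 45.8% GC, against 1.0 and 44.6% in the regions held by all 4 libraries. Soft-masked repeat sequence made up a median of 18.0% of these central stretches in members and 19.6% in regions held by all 4. Over whole regions, at least 90% of the length was masked in 78 members (3.15%, exact 95% interval 2.49% to 3.91%). It was so in 1.25% of the longer regions held by all 4 and in 1.93% to 8.66% of the regions of the other pairs. In the central 500 bp the shares were 3.67% of members, 3.32% of the regions held by all 4 and 2.76% to 9.09% in the other pairs.

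The number of members was set beside the regions held by each other pair of libraries alone, because any 2 libraries hold some regions that the rest lack. CTR 1 and CTR 2 alone held 295 regions. CTR 1 and NPM1 KD 1 alone held 1884, CTR 1 and NPM1 KD 2 alone 1155, CTR 2 and NPM1 KD 1 alone 362, and CTR 2 and NPM1 KD 2 alone 279. The NPM1 KD pair thus held the highest number of the 6 pairs, and the 3 pairs that include CTR 2 held the lowest. Dividing the libraries by treatment gave 2774 regions of a single pair, dividing them by replicate number gave 2163, and crossing the numbers gave 1517. The larger pair exceeded the smaller by a factor of 8.40 by treatment, 6.75 by replicate number and 3.19 when crossed. With every list cut to the length of the shortest, the NPM1 KD pair held 1420 regions and the CTR pair 371, a factor of 3.83, against 1.77 by replicate number and 1.83 when crossed. The pairs with CTR 2 were then no longer the 3 lowest, since CTR 2 and NPM1 KD 1 held 787 and CTR 1 and NPM1 KD 2 held 431. With only the peaks whose −log10 q reached 5, the factor by treatment was 2.53 (114 against 45), below 12.8 by replicate number and 68.2 when crossed.

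**Figure D1:**
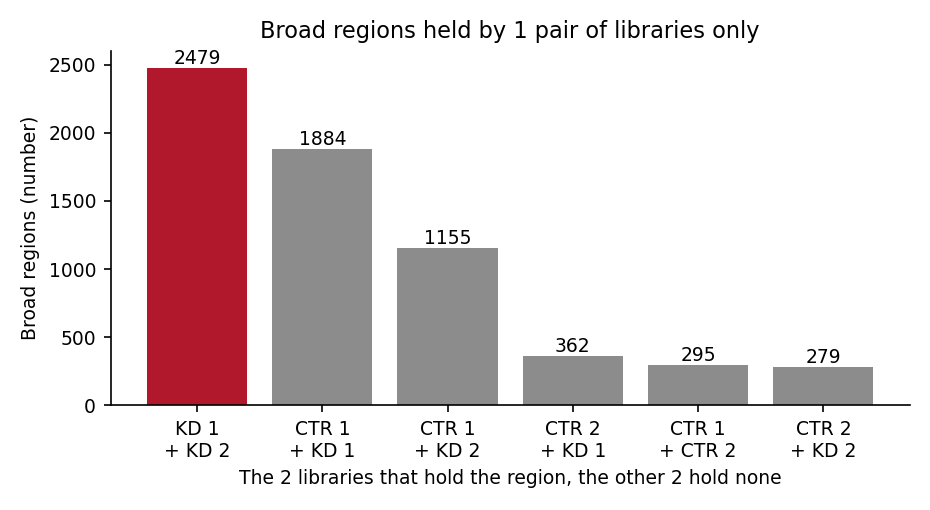
Number of broad regions (y axis) held by both libraries of a pair and by neither of the other 2 (x axis, KD for NPM1 KD). The red bar is the NPM1 KD pair with 2479 regions, followed by the 2 other pairs without CTR 2, with 1884 and 1155.

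Depth differed between libraries within each group. The background pileup recovered from narrow peaks, which rises with the number of reads, was 7.65 in CTR 2 and 8.99 in NPM1 KD 1, against 11.9 in CTR 1 and 11.8 in NPM1 KD 2. On chromosomes 1 to 19, broad peaks numbered 47526 for CTR 1, 33953 for CTR 2, 43092 for NPM1 KD 1 and 45303 for NPM1 KD 2. CTR 2 was lowest in both measures, and the part of depth in the count of members was not tested. The count depended on CTR 1 more than on CTR 2, since 6069 regions met the rule without CTR 1 and 3123 without CTR 2. It was 10085 when NPM1 KD 2 alone had to hold the region and 10501 when NPM1 KD 1 alone had to.

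Within a replicate number, which may mark a shared transfection batch, NPM1 KD held more regions that the CTR library of that number lacked than the reverse. For number 1 these were 10731 regions in NPM1 KD 1 and not in CTR 1, against 5927 in CTR 1 and not in NPM1 KD 1. For number 2 they were 12962 against 2127. The look-ups that follow divide again the calls of presence and absence that chose the members, and 2479 is the member count itself. They are a description and no independent check between replicates. Of the 10731 regions of NPM1 KD 1 and not CTR 1, 2479 (23.1%) went the same way in number 2 and 362 (3.37%) the other way. Of the 5927 regions of CTR 1 and not NPM1 KD 1, 295 (4.98%) went the same way in number 2 and 1155 (19.5%) the other way. The look-up from number 2 in number 1 was less one-sided. Of the 12962 regions of NPM1 KD 2 and not CTR 2, 19.1% went the same way in number 1 and 8.91% the other way, and of the 2127 of CTR 2 and not NPM1 KD 2, 13.9% went the same way and 17.0% the other way.

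Members were short and scored low, near the limit of what MACS2 calls. Their median width was 671 bp (quartiles 433.5 and 1006.5) and the widest measured 3915 bp. Together they covered 1.95 Mb. The regions held by all 4 libraries had a median width of 5596 bp and covered 251.6 Mb. The median −log10 q in the weaker NPM1 KD library was 1.32, and the highest was 3.51. A value of at least 2 was reached by 110 members (4.44%) and a value of at least 3 by 5. In the regions held by all 4 libraries the weakest library had a median of 3.91. The other pairs had medians of 1.28 to 1.41, so scores were low in the regions of every pair.

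The rule has a threshold, because a peak too weak to be listed counts as absent. Many members tied just inside it, at a −log10 q of 1.01 in NPM1 KD 1. Examples lay in an intron of Pygo1, within 3 kb of an annotated start in Kif23 and in distal intergenic sequence. Regions just outside it had a peak in both NPM1 KD libraries and a −log10 q of 1.05 in CTR 1, the lowest of that list. Examples that shared this value lay in introns of Cops5, Agap1 and Clasp1. The lists begin at 1.01 to 1.05, and CTR signal in the members, which lies somewhere below that limit, has no value in them. The narrow lists hold other peaks of the same libraries, but their peak names lack a mark of read filtering that the broad ones carry, so the kinds of list may rest on different alignments. A narrow peak overlapped 54.8% of members in NPM1 KD 1 and 56.7% in NPM1 KD 2, and 33.5% in both. In CTR 1 and CTR 2 the shares were 1.01% and 0.847%, and 98.8% of members had a narrow peak in neither. The narrow lists begin at a −log10 q of 1.31 to 1.33, above the start of the broad lists. Members lack a CTR broad peak by the rule, so these low CTR shares were largely set in advance and add no evidence of absence. In the other pairs, 28.5% to 39.0% of regions had a narrow peak in both libraries that held them. A narrow peak in neither of the remaining libraries was found for 93.2% to 97.9%.

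Position in genes was not used by the rule. A region that overlapped several classes was given the one that came first. Promoters (up to 3 kb either side of any annotated transcription start, internal starts included) ranked before 5′ and 3′ UTRs, and these before exons, introns, the 3 kb downstream of a gene and distal intergenic sequence. Introns held 54.9% of members (exact 95% interval 52.9% to 56.8%, counting error only) and promoters 27.6% (25.8% to 29.4%). Exons held 6.49%, 3′ UTRs 3.79% and distal intergenic sequence 5.24%. The regions held by all 4 libraries had the opposite order, with 63.0% at promoters and 23.6% in introns. They are longer (median 5596 bp against 671 bp), and a longer region more easily touches a promoter, the class ranked first. Their class by midpoint was not computed, so the part of width in this contrast was not tested. The other 5 pairs resembled the members, with 24.4% to 32.8% at promoters and 49.0% to 56.9% in introns. The promoter share was lower, 13.6%, with a promoter of 1 kb, and introns then held 63.5%.

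**Figure D2:**
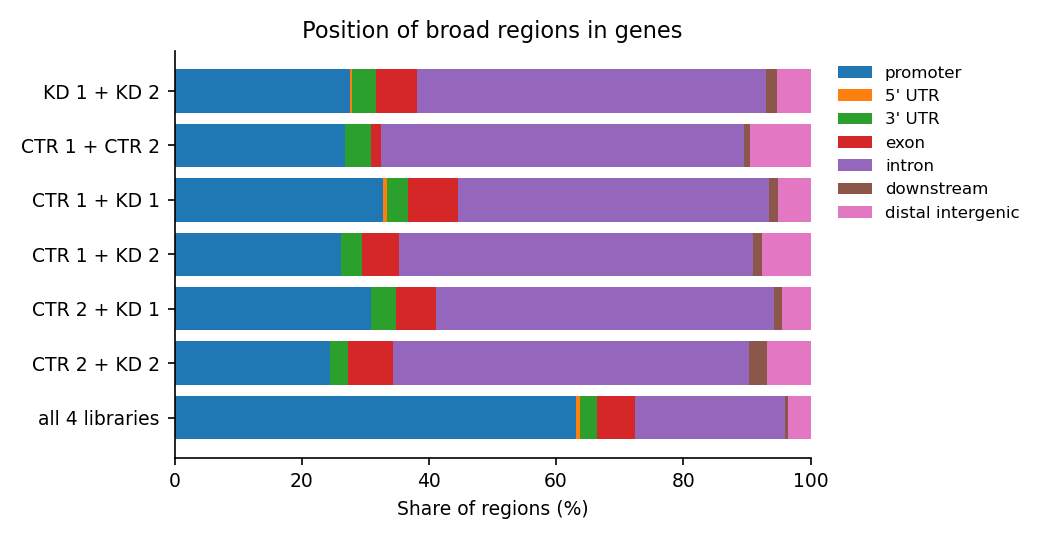
Share of regions in each position class (x axis, %) for the regions held by 1 pair of libraries only and for those held by all 4 (y axis, KD for NPM1 KD, members in the top bar). Introns are the largest class in all 6 pairs, with 54.9% of members, and promoters the largest in the regions held by all 4, with 63.0%. The regions held by all 4 are longer, which favours the promoter class because it is ranked first.

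Most members lay close to a region held by all 4 libraries. The median distance between edges was 2756 bp (95% interval 2553 to 3012 bp, quartiles 879.5 and 8544 bp). It was under 1 kb for 28.2% of members, under 5 kb for 64.4% and under 50 kb for 96.0%. The medians of the other pairs ran from 2142 to 3111 bp. Counting any region with a CTR peak as neighbour, the median fell to 1033 bp and 49.0% of members lay within 1 kb of one. Members also lay near one another, with 29.3% within 10 kb of another member, a share that rises with the number of regions in a set and was 20.3% for the next largest pair.

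Members sat in genes that were also marked in CTR. A gene with a region held by all 4 libraries contained 87.5% of members (exact 95% interval 86.1% to 88.8%), and the other pairs had 81.4% to 87.6%. Of the members, 2104 lay in exactly 1 protein-coding gene, 77 in several and 298 in none. Among the 2104, the median position was 56.6% of the way along the gene and 56.1 kb from its start, and the median length of these genes was 113 kb. Regions held by all 4 libraries had a median position of 39.9%. The nearest region held by all 4 in the same gene could be compared for 2042 members, and 1489 of them (72.9%, 70.9% to 74.8%) lay on its 3′ side. Of the 2042, 1104 (54.1%) lay between 2 such regions, 907 (44.4%) beyond the last one toward the 3′ end and 31 (1.52%) before the first one. The other pairs had 71.7% to 75.2% on the 3′ side and 38.8% to 49.7% beyond the last region, so this placement was shared by regions of every pair.

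**Figure D3:**
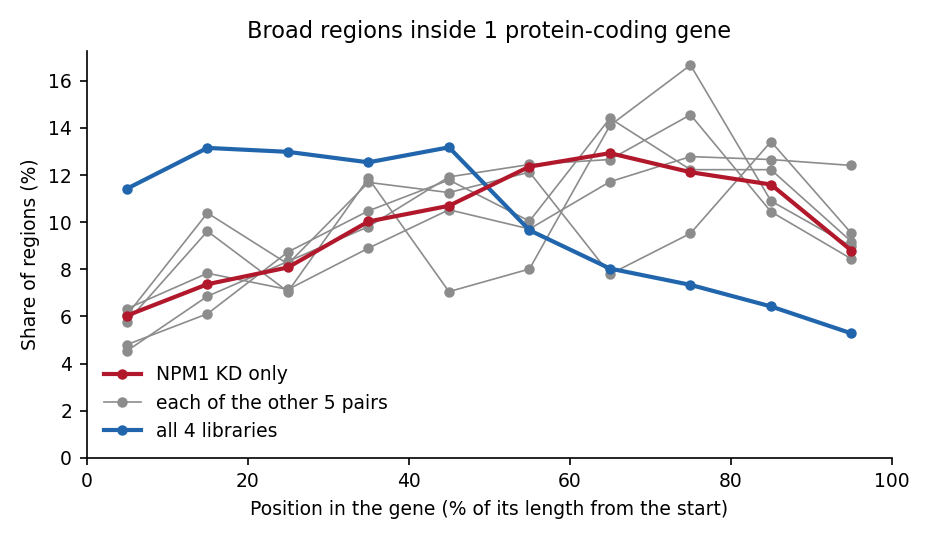
Share of regions (y axis, %) in each 10% of the gene (x axis, % of gene length from the start) for regions that lie in exactly 1 protein-coding gene. Members (red) and the other 5 pairs (grey) lean toward the 3′ part, whereas regions held by all 4 libraries (blue) are densest in the 5′ part.

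Members fell on 1454 of 20807 protein-coding genes (6.99%) and on 1396 of 10713 genes with a region held by all 4 libraries (13.0%). The share rose with gene length. Among genes with a region held by all 4 it was 0.938% under 10 kb, 8.00% from 10 to 50 kb, 27.6% from 50 to 200 kb and 57.0% (272 of 477) at 200 kb and over. The pair of CTR 1 and NPM1 KD 1 followed the same course, with 1.21%, 7.35%, 23.4% and 50.5%. At least 2 members lay in 421 genes and at least 5 in 56. By chromosome, members ranged from 7.48 per 100 regions held by all 4 on chromosome 16 to 16.4 on chromosome 12.

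The genes with the most members were long genes that held several separate regions common to all 4 libraries, from 8 in Xkr6 to 31 in Foxp1 among the 9 single genes named first. Lrba, which encodes a BEACH domain protein of vesicle traffic, held 12. Fbxl17, an F-box subunit of a ubiquitin ligase, and Cdkal1, a tRNA-modifying enzyme, held 11 each. Pard3, a cell polarity scaffold, and Foxp1, a forkhead transcription factor, held 10 each. The attractin-like gene Atrnl1, the BMP receptor gene Bmpr1b and Gphn, whose product gephyrin anchors inhibitory receptors, held 9 each, and Xkr6 held 8. Xkr6 was one of 6 genes with 8 members, and the tie was broken by member bp. It also brought in Gm20388, a model of 4435 kb that spans many other genes. These genes were picked for their members, and the CTR pair alone held 1 region in Lrba and 1 in Atrnl1 and none in the other 8. Other pairs held more, with 10 regions of CTR 1 and NPM1 KD 1 alone in Gm20388 and, for CTR 1 and NPM1 KD 2 alone, 6 in Pard3 and 4 in Lrba.

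Outside the members, broad peaks also covered more of most of these genes in NPM1 KD. This comes from the same lists and the same contrast as the choice of members, so it is a description of those genes and adds no evidence. With members left out, broad peaks covered 85.0 kb of Fbxl17 in CTR 1, 72.7 kb in CTR 2, 129 kb in NPM1 KD 1 and 131 kb in NPM1 KD 2. The NPM1 KD libraries were both above the CTR libraries, by a factor of 1.65 between means. In Bmpr1b the values were 31.7, 24.7, 45.6 and 44.9 kb in the same order, a factor of 1.60. In Foxp1 they were 195, 155, 269 and 233 kb, a factor of 1.43. The groups did not overlap in these 2 genes either. In Pard3, which was already covered over most of its length, the values were 341, 316, 391 and 379 kb, a factor of 1.17. Of the 10 genes, 9 had both NPM1 KD libraries above both CTR libraries, and Gm20388 did not. All 10 are longer than 200 kb. Among all 477 genes of 200 kb and over with a region held by all 4, 69.0% had this order, and 79.4% of the 272 with a member did.

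**Figure D4:**
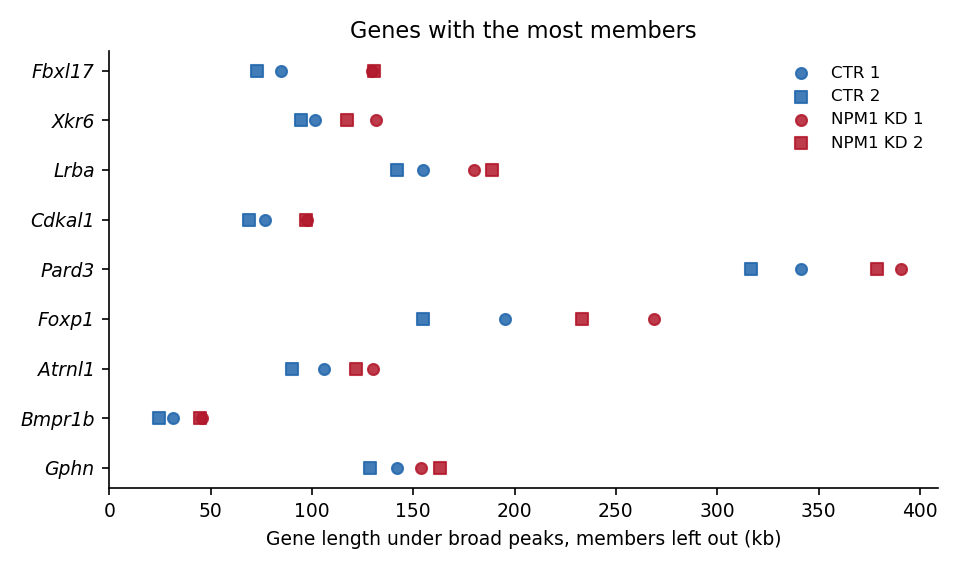
Length under broad peaks (x axis, kb) in each library, with the members themselves left out, for 9 of the 10 protein-coding genes with the most members, ties broken by member bp (y axis). Gm20388 is not drawn because it is a 4435 kb model. In each of the 9 genes both NPM1 KD libraries (red) lie above both CTR libraries (blue).

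Over all 10713 genes with a region held by all 4, covered length outside members was above both CTR libraries in both NPM1 KD libraries in 43.4%. It was so in 70.2% of the 1396 genes with a member (67.7% to 72.6%) and in 39.3% of the 9317 without (38.3% to 40.3%). The shares also differed within wide bins of gene length, in which genes with and without a member can still differ in length. At 200 kb and over the shares were 79.4% of 272 genes and 55.1% of 205, and under 50 kb they were 58.0% of 440 and 35.1% of 7318. The median ratio of NPM1 KD to CTR was 1.12 in genes with a member and 1.05 in genes without. Genes with a member were chosen on the same contrast, so the difference in shares has no test.

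The highest scores among members came from introns of genes of mixed function. The member in Cyyr1 (ENSMUSG00000041134.15, intron 2, chr16:85529053-85529547) had a −log10 q of 5.01 in NPM1 KD 1 and 3.51 in NPM1 KD 2 and a fold over background of 2.72 and 2.26. Soft-masked repeat made up 52.5% of its sequence. The member in Stxbp5, which encodes the SNARE regulator tomosyn, lay in intron 8 at chr10:9826066-9826658 with 3.71 and 3.43. It was 17639 bp from the nearest region held by all 4. Stag1, a cohesin subunit, held the fourth in its intron 5, with 3.26 and 3.12, and 5 members in all. The others lay in introns of the metalloprotease gene Adam12, of Fbxl17, of Dedd2, of the Wnt antagonist gene Znrf3 and of the phosphatase gene Ptpn4, and in intergenic sequence of chromosomes 3 and 15. All 10 had a narrow peak in both NPM1 KD libraries and in no CTR library.

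The widest members were weaker. The 2 in Mbd5, a gene of the methyl-CpG-binding domain family, measured 3915 bp and 3232 bp, in introns 6 and 5, with a −log10 q of 1.58 and 2.14 for the first and 2.56 and 2.94 for the second in NPM1 KD 1 and 2. Mbd5 held 7 members in all, and outside them peaks covered 116, 112, 149 and 159 kb in CTR 1, CTR 2, NPM1 KD 1 and NPM1 KD 2. Xkr6 had a member of 3363 bp that a gap of 35 bp set apart from a region held by all 4. Foxp4, a forkhead factor related to Foxp1, the H3K4 demethylase gene Kdm5a, the dynein adaptor gene Bicd1, Ptprn2 and Tmem50b held the other wide members in genes. Those in Foxp4 and Tmem50b lay 612 and 360 bp from a region held by all 4 in the 5′ part of the gene. The remaining 2 lay outside protein-coding genes on chromosome 5 and in the histone gene cluster of chromosome 13.

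A small set, 34 of 20807 protein-coding genes, held a member and no CTR broad peak at all in the body or the 3 kb upstream. Ddc, which encodes the aromatic amino acid decarboxylase of dopamine and serotonin synthesis, led them (ENSMUSG00000020182.16, chromosome 11, 11814101 to 11898144). Broad peaks covered 0 bp of Ddc in each CTR library, against 3937 and 4043 bp in NPM1 KD 1 and 2. Its 3 members lay far from the start, 52.9 to 62.6 kb into a gene of 84.0 kb, in introns 7, 8 and 9, and 2 of them lay within 3 kb of an annotated start. The best had a −log10 q of 2.15 and 2.29. An absent CTR peak says that no stretch passed the caller's limit there, not that the mark was absent. No such count was made for the other pairs. By a related measure, 62 of 2104 members lay in a gene without a region held by all 4. For CTR 1 and NPM1 KD 1 alone it was 66 of 1596, and for CTR 1 and NPM1 KD 2 alone 25 of 948. The CTR pair had 7 of 231, CTR 2 and NPM1 KD 1 alone 9 of 312, and CTR 2 and NPM1 KD 2 alone 2 of 229.

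Several other genes without a CTR broad peak had their member fewer kb from the start than Ddc. In Fgfrl1, an FGF receptor-like gene, it lay in intron 2 and 3.12 kb from the start. Peaks covered 2620 and 128 bp of the whole gene in NPM1 KD 1 and 2. NPM1 KD 2 thus held at most 128 bp of the 2027 bp member. In Oprd1, the delta opioid receptor gene, and in Pemt, a phosphatidylethanolamine methyltransferase gene, it lay in intron 1. In Tnni1, which encodes slow skeletal troponin I, it lay in intron 2, and peaks covered 198 and 1206 bp of the gene in NPM1 KD 1 and 2. Mindy4 held 1 member, and so did Tmem88b, in exon 2 of 2 and 72.8% of the way along this short gene. Peaks covered 1490 and 363 bp of Tmem88b in NPM1 KD 1 and 2. The member at Zc2hc1c also overlapped Acyp1, so it cannot be assigned to Zc2hc1c alone. Hist1h2bp and Hist1h2bk had theirs upstream of the gene, and since these histone genes have near-identical copies the assignment of reads there is uncertain.

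Of the genes that the study follows, Ctcf alone held a member. It covered 1392 bp at chr8:105679429-105680820 around exon 11 of 12 of Ctcf (ENSMUSG00000005698.15), 94.0% of the way along the gene and 2483 bp beyond a region held by all 4 that measured 71926 bp. Its −log10 q was 2.14 in NPM1 KD 1 and 1.39 in NPM1 KD 2. Outside the member, broad peaks covered 40.0 kb of Ctcf in CTR 1, 37.7 kb in CTR 2, 40.2 kb in NPM1 KD 1 and 41.7 kb in NPM1 KD 2. Npm1, Dot1l, Ezh1, Ezh2 and Kdm3a held 0 members. Npm1 was covered over 100% of its body in all 4 libraries, and the peak lists do not measure the transcript that the hairpin targets. Kdm3a, an H3K9 demethylase gene, was covered over 28.3, 29.0, 36.3 and 35.7 kb in CTR 1, CTR 2, NPM1 KD 1 and NPM1 KD 2, by regions that all 4 libraries held, and the nearest member was 10296479 bp away.

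The gene lists were described by their counts beside the 6.99% of all protein-coding genes and the 13.0% of genes with a region held by all 4. Of 34 genes of DOT1L and elongation factors, 5 held a member (14.7%). They were Aff4, the scaffold of the super elongation complex, with 3, Mllt3, whose product AF9 binds DOT1L, with 4, the PAF1 complex gene Cdc73 and Aff1 with 1 each, and 1 more gene. With members left out, Mllt3 was covered over 163, 149, 170 and 169 kb in CTR 1, CTR 2, NPM1 KD 1 and NPM1 KD 2. Of 12 genes of PRC2 and H3K27 methylation none held a member. Of 21 genes that write, erase or read H3K9 methylation, 4 did, namely Ehmt1, Jmjd1c, Suv39h2 and Kdm4c.

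Of 17 genes of Ctcf, cohesin and the lamina, 6 held a member (35.3%). Besides Ctcf and Stag1 these were the cohesin regulator gene Pds5b with 2, the lamin gene Lmna with 1 and 2 further genes with 1 each. The 6 genes ran from 29.8 kb (Lmna) to 362 kb (Stag1), and the share with a member rose with gene length as given above. CTR 1 and NPM1 KD 1 alone reached 3 of these 17 genes, and CTR 1 and NPM1 KD 2 alone also reached 3. Of 35 genes of the nucleolus and ribosomal RNA synthesis 3 held one (8.57%), Utp20, Nop2 and Nol10. Among 22 genes of sympathetic neuroblast identity there were Ddc and the receptor kinase gene Alk, and among 42 cell cycle genes E2f7 and Rbl1. Of 78 genes of neuronal adhesion, guidance and synapse, 18 held a member (23.1%), with Tenm4 at 6 members, the potassium channel gene Kcnma1 at 4 and the guidance genes Slit2 and Slit3 at 3 each. CTR 1 and NPM1 KD 1 alone also reached 18 of these 78 genes, many of which are long. In Tenm4 the pair of CTR 1 and NPM1 KD 1 held 10 regions, more than the NPM1 KD pair.

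The cell type was checked on its markers. Of 12 neuroblast markers 11 had a region held by all 4, and Dbh had none. None of the 4 astrocyte, 4 fibroblast and 3 endothelial markers had one. Of 3 leukocyte markers only Cd68 had one, and no marker gene of any list held a member.

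The regions held by all 4 that lie next to members were then compared with the rest. A total of 2029 of them were the nearest such region of at least 1 member. Summed over them, the covered length was 18.7 and 17.8 Mb in CTR 1 and CTR 2, and 20.2 and 19.7 Mb in NPM1 KD 1 and NPM1 KD 2. The means were 18.3 ± 0.589 Mb and 19.9 ± 0.295 Mb (SD, n = 2), and the groups did not overlap. The sum over all 20216 regions held by all 4 was ordered likewise, with 227 and 218 Mb in CTR 1 and 2 and 239.6 and 234 Mb in NPM1 KD 1 and 2. Neighbours were found through members and so through the same contrast, and their values are a description with no test. The 2 NPM1 KD libraries both exceeded the 2 CTR libraries in 48.5% of these neighbours (46.4% to 50.7%), against 43.9% of all 20216 regions held by all 4 and 43.3% of those not nearest to a member. The opposite order was found in 3.70% of neighbours and 4.90% of all. The neighbours of the other pairs had 34.5% to 41.1%. The median change was 0.16 on the log2(covered bp + 1000) scale next to members and 0.086 over all.

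**Figure D5:**
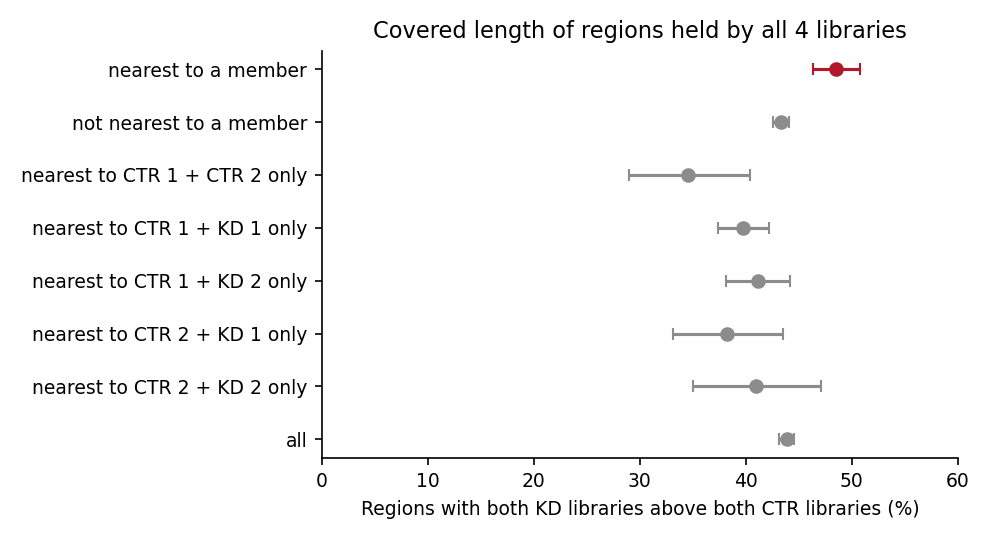
Share of regions held by all 4 libraries (x axis, %) in which both NPM1 KD libraries cover more bp than both CTR libraries, by what the region is nearest to (y axis, KD for NPM1 KD). Points are shares and bars exact 95% intervals for counting error only, and the value next to members (red) is 48.5%.

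Tested region by region, no change in covered length passed the threshold. With limma and Benjamini-Hochberg adjustment over all 20216 regions, 0 were called (0%), with a smallest adjusted p of 0.242 overall and among the neighbours of members. An unadjusted p under 0.05 was found in 2470 regions, and NPM1 KD had the longer coverage in 2296 (11.4% of all) and the shorter in 174. Among the 2029 neighbours of members these numbers were 331 (16.3%) and 15. With only the peaks whose −log10 q reached 5, 6 of 9165 regions passed, all with more covered bp in NPM1 KD. Covered length was not adjusted for depth or for the number of peaks in a list. The median log2 change was 0.086 with all libraries. It was 0.046 without CTR 2, 0.121 without CTR 1, 0.061 without NPM1 KD 1 and 0.111 without NPM1 KD 2. The study's own comparison of reads, another measure, reported more regions losing the mark than gaining it.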

How the data were processed

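H3K79me2 ChIP-seq was performed in N2a cells with 2 libraries per group. According to the methods and processing notes of the study, paired-end reads were trimmed with Trimmomatic 0.38 and aligned to mm10 (GRCm38) with Bowtie2 2.3.4.1, reads with a mapping quality above 5 were kept, and peaks were called per library with MACS2 (2.2.6 in the notes, another version in the methods). The authors deposited 1 broad and 1 narrow list per library. Each peak has a score (its −log10 q multiplied by 10 and truncated), the fold over the MACS2 background as a ratio, and −log10 p and −log10 q, all as the authors' caller gave them. Broad lists were the main ones, and their −log10 q, adjusted within each library, served only to describe or filter peaks. Whether the inputs were the caller's control, and whether the narrow lists came from the filtered reads, is not given in the sources used here, and both bear on the recovered background. Read counts were not analysed here.

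The members and lists were chosen with earlier results of these data known. Peaks sharing at least 1 bp were merged in Python 3.11.15 with numpy 2.4.6 and scipy 1.17.1. Genes came from GENCODE vM21 (GRCm38), and sequence and soft-masking from RefSeq GRCm38.p6. Promoters were 3 kb to either side of a start. Intervals of shares are exact binomial 95% intervals, those of medians come from order statistics, and both cover counting error only. Regions share libraries and neighbours and are no replicates, so no p was computed over them. Background pileup, a relative depth, was solved from fold and p of 3000 narrow peaks per library, of which 100% gave whole pileups. Total reads per library are unknown. Covered length of the 20216 regions held by all 4 was tested on a scale of log2(covered bp + 1000) by limma 3.58.1 under R 4.3.3, threshold 0.05. Both steps were tested on simulated data. Named were the genes the study follows and those at the 10 members with the highest weaker −log10 q or at the 10 widest members. Also named were the genes with the most members and those with the most member bp without a CTR peak. Examples of the regions nearest the threshold and up to 4 genes of each list were added. Figures were drawn with matplotlib 3.10.9. Alternatives were other peak thresholds, list lengths, merging distances, classes, annotations and lists, and leaving out each library.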

Additional observations from a re-analysis of the deposited data

How the results depend on the processing

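Most of the values above moved under other settings, and the cause was not tested unless stated. Keeping peaks whose −log10 q reached 5 left 114 regions of NPM1 KD only, with 52.6% at promoters, 26.3% in introns, a median distance of 10320.5 bp and 46.5% in a gene with a region held by all 4. None of the 114 could overlap a member, since the highest −log10 q of a member in its weaker library was 3.51. Each of the 114 had a weaker CTR peak in the full lists, which follows largely from the same scores. At this threshold CTR 1 and NPM1 KD 2 alone (273) and CTR 1 and NPM1 KD 1 alone (217) held more. Lists cut to the shortest gave 1420 regions (30.4%, 52.1%, 3029.5 bp and 86.1%), of which 692 overlapped a member. The NPM1 KD pair was the highest of the 6 pairs there. Narrow lists gave 4345 regions (29.7% at promoters, 1357 bp and 88.9%), of which 14.6% overlapped a member. Merging within 1 kb gave 1480 regions, 4769.5 bp and 84.7%. By midpoint, promoters held 25.2% and introns 62.0%, with a 1 kb promoter 13.6% and 63.5%, and with protein-coding genes only 21.3% and 57.7%, with 85.4% in a gene with a region held by all 4. The distance was 6803 bp between midpoints, longer by construction, and 1033 bp to any region with a CTR peak. Adding X and Y gave 2539 regions. Leaving out 1 library gave 3123 (without CTR 2) to 10501 regions (without NPM1 KD 2) and distances of 1698 to 3262 bp. The limma count (Benjamini-Hochberg adjusted) was 0 in 7 alternatives and 6 of 9165 with peaks whose −log10 q reached 5. Leaving out each library in turn also gave 0, but these fits take the spread from the 1 group that keeps 2 libraries and assume it for the lone library (smallest adjusted p 0.247 to 0.568), so they say little about stability. With the replicate block, the replicate number as a factor, it was 0, with 2849 regions at an unadjusted p under 0.05. Deviations from the group mean correlated at 0.116 between libraries of 1 number, which share no more than that number in the labels. Total reads per library and weak CTR signal below the caller's limit are not visible in peak lists.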

Other observations

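Chromosomes X and Y were left out of the counts above. On chromosome X, 60 of 1340 merged broad regions (4.48%) were held by both NPM1 KD libraries only and 7 (0.522%) by both CTR libraries only. CTR 1 and NPM1 KD 1 alone held 48, CTR 1 and NPM1 KD 2 alone 44, CTR 2 and NPM1 KD 2 alone 15, and CTR 2 and NPM1 KD 1 alone 9, so the NPM1 KD pair was again the highest and the pairs with CTR 2 the lowest. The 60 regions touched 45 protein-coding genes, and 8 lay outside any. Iqsec2, which encodes an exchange factor at synapses, held 3. Jade3, Apex2, which encodes a DNA repair endonuclease, Brwd3 and Snx12, a sorting nexin gene, held 2 each. On chromosome Y, 0 of 27 merged regions met the rule, and 7 were held by CTR 1 and NPM1 KD 2 alone.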
